A study of Rattus norvegicus with 14 samples.

Results

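The step from embryonic day 13 (E13) to embryonic day 14 (E14) in the fetal rat testis was measured on 4 of the 14 arrays of the study, 2 of E13 testis and 2 of E14 testis. All 4 came from fresh gonads. The other 10 arrays held E16 testis, ovary at E13, E14 and E16, and E13 testis cultured for 3 days, 2 arrays of each. Every array held the RNA of 1 pool, made of between 20 and 40 gonads, and the pools of a group were independent. The labels name the rat (Rattus norvegicus) without a strain, and they give no allele and no treatment for the fresh gonads. A pool mixes all cell types of the gonad, so fewer cells of a type and less RNA per cell cannot be told apart in any value below. The comparison ran over 15866 probe sets, which are groups of short probes for 1 transcript, and 10411 named genes. Values are deposited intensities, given for replicate 1 and then replicate 2. Differences are log2(intensity + 16) of E14 minus E13, with the standard error (SE) of the fit. A probe set passed at an adjusted p under 0.05 (limma, Benjamini-Hochberg adjustment over all probe sets).

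The XY gonad becomes a testis when the Y-linked factor Sry acts in supporting cells, which then turn into Sertoli cells. Sertoli cells gather into cords around the germ cells and secrete anti-Müllerian hormone (Amh), which makes the ducts of the female tract regress. Fetal Leydig cells, which make androgens, arise in the tissue between the cords after the Sertoli cells.

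The sex labels were set against the sex chromosome genes first. Sry read 162.8 and 184.9 at E13 and 45.9 and 37.1 at E14 in testis, and between 13.1 and 28.7 in the ovary arrays of these ages. Xist, whose RNA silences 1 X chromosome in XX cells, read 1.9 in replicate 2 of both testis groups. It read 36.2 in E13 testis replicate 1 and 269.2 in E14 testis replicate 1, where the ovary arrays of these ages read 224.3 to 672.3. The E14 testis replicate 1 array therefore lay within the ovary range for this 1 gene. The cause of this reading was not tested, and the calls left without this array are given in the next paragraph. The replicate 2 arrays, which read 1.9 for Xist, were also the only arrays of both groups in 1 chip period, a grouping inferred from the form of the chip labels and not known to be a hybridisation batch. The replicate 2 difference is therefore given beside the main results. It is 1 array against 1 and has no test. Wt1, a marker of the gonad, read 838.7 and 863.2 at E13 and 811.9 and 691.6 at E14. The E13 arrays correlated at r = 0.958 and the E14 arrays at r = 0.970 across probe sets, and pairs of an E13 and an E14 array at r = 0.954 to 0.964. The E13 arrays thus correlated less with each other than 3 of the 4 pairs across ages did.

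Of the 15866 probe sets, 11 passed (0.0693%), 7 of them higher at E14 (0.0441%) and 4 lower (0.0252%). At an unadjusted p under 0.05 there were 1141 (7.19%), 505 higher (3.18%) and 636 lower (4.01%). All 11 had arrays that did not overlap between the ages, as did 35.6% of all probe sets. The count of 11 was 0 without E13 testis replicate 1, 0 without E13 testis replicate 2, 2 without E14 testis replicate 1 and 2 without E14 testis replicate 2 (978, 1374, 1002 and 766 at an unadjusted p under 0.05). Amh and Angel2 were the 2 left without E14 testis replicate 2, and none of the 11 was among the 2 without E14 testis replicate 1. It was 5 without E13 ovary replicate 1 or 2, which enter only the estimate of the spread. Without both testis replicate 1 arrays and the other 2 arrays whose Xist went against the label, it was 0 (limma, 1076 at an unadjusted p under 0.05). It was 36 with chip period as a block, of which 7 were among the 11.

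**Figure D1:**
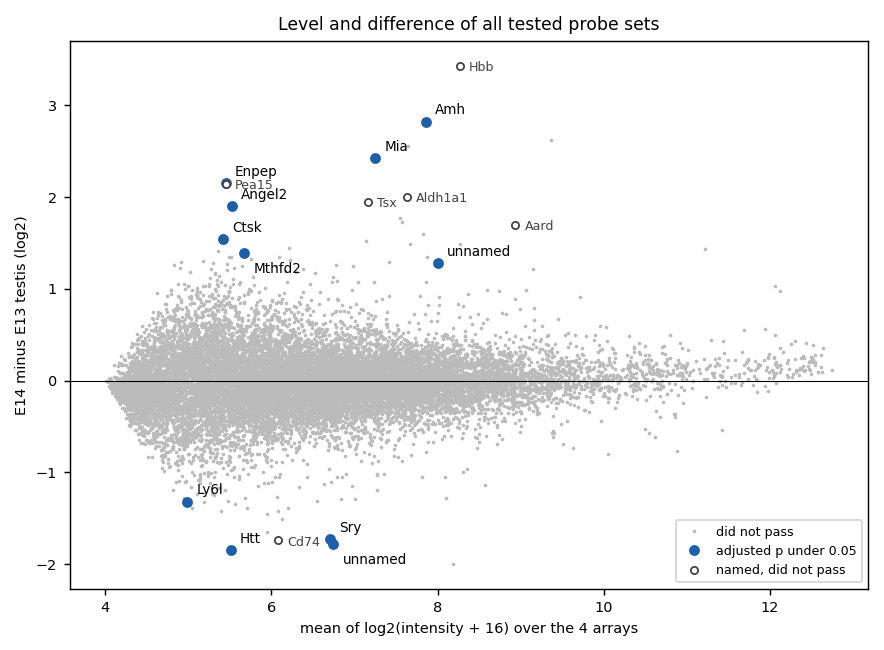
Each point is 1 of 15866 probe sets, with its mean of log2(intensity + 16) over the 4 arrays on the x axis and the log2 difference of E14 minus E13 testis on the y axis. Filled points mark the 11 that passed, and open points mark 6 further genes named in the text that did not pass, among them Hbb with the largest difference (3.43).

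The 3 named genes with the largest rise that passed were Amh, Mia and Enpep. Their RefSeq promoters (build GRCr8, 250 bases before the annotated start, 5′ to 3′ on the strand of the gene) are shown because the values below turn on these genes. They were searched on both strands for letters bound by factors of the early gonad. These were AAGGTCA for Nr5a1, AGATAA and its forms with T first or G last for GATA factors, and AACAAT or the longer AACAAAG for SOX factors. All GATA forms overlap in the letters GATA, and the SOX forms in their first letters. Capitals mark the matches. The Amh window lies at chr7:9559868-9560117, the Mia window at chr1:91603020-91603269 and the Enpep window at chr2:220526219-220526468, all on the minus strand.
Amh: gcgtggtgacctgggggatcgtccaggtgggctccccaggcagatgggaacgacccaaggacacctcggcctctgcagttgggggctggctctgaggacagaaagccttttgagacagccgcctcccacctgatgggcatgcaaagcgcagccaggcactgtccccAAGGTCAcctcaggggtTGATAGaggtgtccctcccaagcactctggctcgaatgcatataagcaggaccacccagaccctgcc
Mia: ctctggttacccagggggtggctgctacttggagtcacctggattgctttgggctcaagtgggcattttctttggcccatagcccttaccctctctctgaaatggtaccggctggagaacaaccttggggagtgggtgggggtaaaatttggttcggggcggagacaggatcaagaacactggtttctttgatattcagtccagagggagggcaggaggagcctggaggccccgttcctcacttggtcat
Enpep: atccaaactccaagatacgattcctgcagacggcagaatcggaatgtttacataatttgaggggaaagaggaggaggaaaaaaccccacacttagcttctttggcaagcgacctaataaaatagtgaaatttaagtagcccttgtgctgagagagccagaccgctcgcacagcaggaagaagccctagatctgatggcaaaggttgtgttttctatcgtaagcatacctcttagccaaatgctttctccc
The Amh window held AAGGTCA and TGATAG, and the Mia and Enpep windows held none of these letters. Among 33469 RefSeq promoter windows of 250 bases, 3.99% held the Nr5a1 letters, 27.0% a GATA form and 14.8% a SOX form. A match describes the letters and is not a measured binding site. On the arrays, Gata4 read 389.3 and 332.8 at E13 and 605.1 and 462.3 at E14 (log2 0.54, adjusted p = 0.639 by limma, not passed), while its dimmer probe set overlapped with a difference of -0.17. Nr5a1, a nuclear receptor of the steroid-producing organs, was dim, at 15.3 and 42.0 against 29.4 and 22.5, and its arrays overlapped.

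Amh had the largest rise of the probe sets that passed. It read 79.5 and 63.9 at E13 and 759.6 and 476.7 at E14, a log2 difference of 2.82 (SE 0.297, adjusted p = 0.0119 by limma). Both E14 arrays were far above both E13 arrays, and the replicate 2 arrays differed by 2.62. In the ovary at E13 and E14 it stayed between 20.6 and 38.5, so the E13 testis arrays already lay above every ovary array of these ages.

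Mia, which encodes a small secreted protein known from melanoma and cartilage, read 66.0 and 36.6 at E13 and 263.3 and 431.3 at E14 (log2 2.43, SE 0.344, adjusted p = 0.0387 by limma). The groups did not overlap, although each spread widely. With chip period as a block its adjusted p was 0.065, while the replicate 2 arrays differed by 3.09.

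Enpep, a peptidase of the cell surface that cleaves angiotensin, read 3.3 and 6.3 at E13 and 69.7 and 83.4 at E14 (log2 2.15, SE 0.246, adjusted p = 0.0130 by limma). It went from among the dimmest readings to a moderate one. A second probe set of Enpep read 49.7 and 35.9 against 51.7 and 36.4 (log2 0.03), so the probe sets of this gene disagree. The ovary showed a difference in the same direction at this probe set, from 18.9 and 3.2 to 45.2 and 55.9 (log2 1.36, adjusted p over 0.05).

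Ctsk, the collagen-degrading protease cathepsin K, read 9.4 and 8.7 at E13 and 60.5 and 53.6 at E14 (log2 1.54, SE 0.199, adjusted p = 0.0216 by limma). The spread within each age was small against the gap. Mthfd2, a mitochondrial enzyme of folate metabolism, read 14.2 and 17.0 against 58.4 and 75.5 (log2 1.39, SE 0.201, adjusted p = 0.0421 by limma). In the ovary Mthfd2 was already at 52.6 and 45.5 at E13, so E13 testis was the low group.

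Angel2, of a family of enzymes that act on RNA, read 7.2 and 8.3 at E13 and 91.3 and 57.4 at E14 (log2 1.90, SE 0.207, adjusted p = 0.0119 by limma). Here, too, E13 testis stood alone. The 10 arrays of the other groups, E14 testis aside, read 47.9 to 83.2. The seventh higher probe set has no gene name in the annotation used. It read 149.8 and 146.1 against 404.8 and 363.1 (log2 1.28, SE 0.191, adjusted p = 0.0448 by limma).

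Sry was the one fall in a gene with a known role in testis formation. Its readings of 162.8 and 184.9 at E13 and 45.9 and 37.1 at E14 gave a log2 difference of -1.73 (SE 0.237, adjusted p = 0.0326 by limma), and the replicate 2 arrays differed by -1.92. The E14 testis arrays still lay above the highest ovary array of these ages (28.7), by less than the gap between E13 and E14. At E16 Sry read 28.2 and 18.5 in testis, within the range of the ovary arrays. Amh and Sry thus passed in opposite directions across this day.

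The other lower probe sets are less certain as genes. A probe set of Htt, the gene of huntingtin, read 82.6 and 59.3 at E13 and 7.0 and 9.1 at E14 (log2 -1.84, SE 0.223, adjusted p = 0.0173 by limma). A brighter Htt probe set read 22.7 and 42.1 against 77.7 and 50.9, a difference of the opposite sign (log2 0.74, not passed), so no direction can be given for the gene. The dimmest probe set of Ly6l read 25.5 and 44.4 against 3.8 and 4.4 (log2 -1.32, SE 0.196, adjusted p = 0.0448 by limma). Its 2 brighter probe sets had differences of -0.71 and -0.48 and did not pass. A probe set with no gene name read 180.3 and 185.2 against 47.8 and 36.8 (log2 -1.78, SE 0.224, adjusted p = 0.0206 by limma). Counted by gene, with the brightest probe set of each over all 14 arrays, 7 of 10411 passed (0.0672%), namely the 6 named rises and Sry. For Enpep the probe set so taken was the dimmer at E13 in testis. Its other probe set read 49.7 and 35.9 there and differed by 0.03, so the count for this gene rests on that choice.

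**Figure D2:**
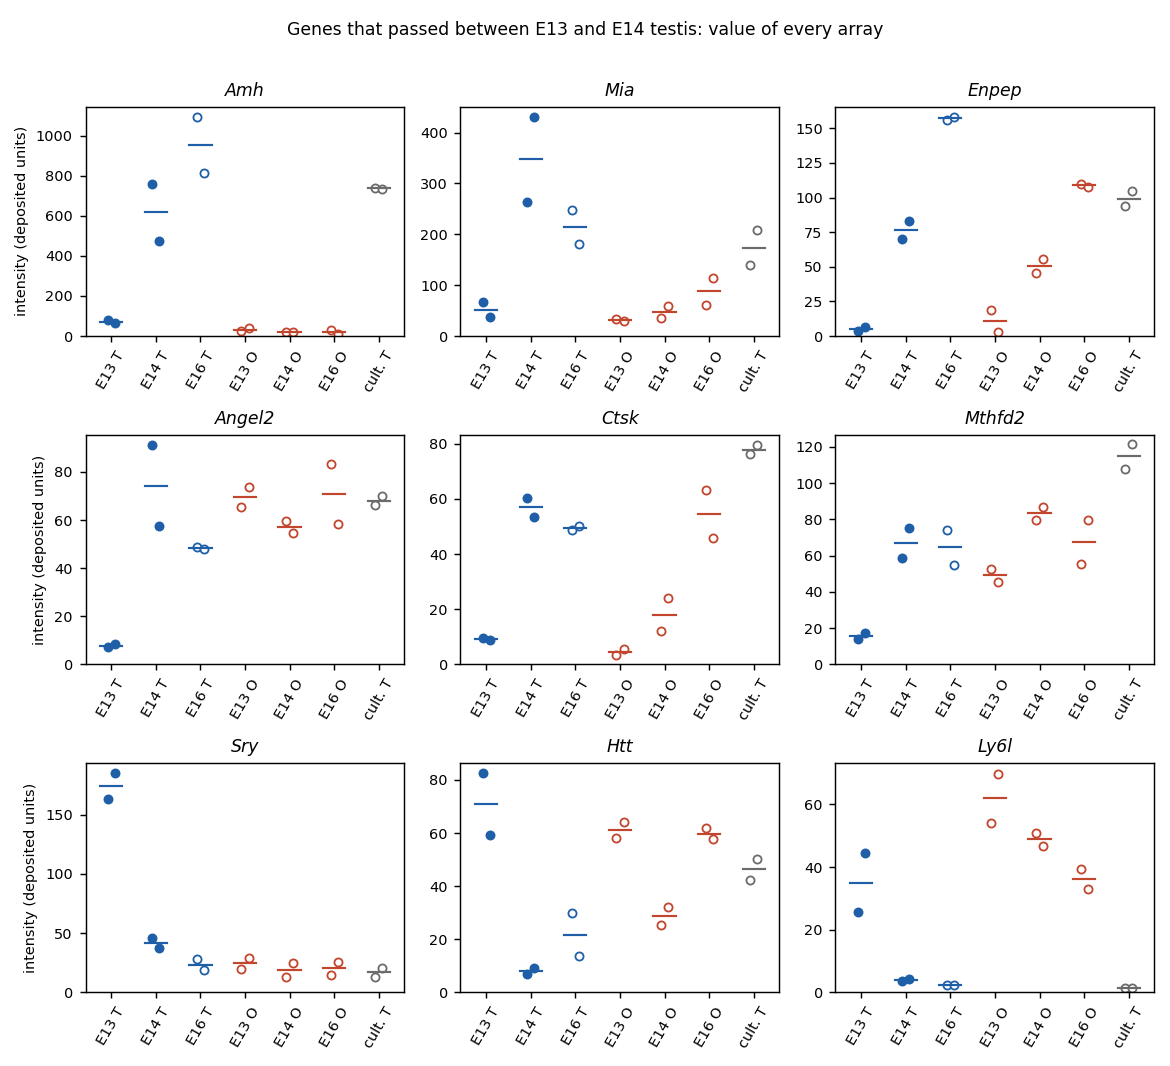
Each panel is 1 of the 9 named probe sets that passed, with the deposited intensity on a linear y axis from 0 and the groups on the x axis (T testis, O ovary, cult. cultured E13 testis). Points are single arrays, filled for the 4 compared, and bars are means of 2; Amh stays at 38.5 or less in every ovary array, while E13 testis is the only low group for Angel2.

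The Sertoli cell list held 29 measured genes of 39, and 2 of them passed, Amh and Mia, both higher. The fitted difference was above 0 for 20 and below 0 for 9, with a median of 0.25. Over all 10411 genes 47.4% were above 0 and the median was -0.0159. At an unadjusted p under 0.05, 9 were higher and 0 lower (over all genes 3.30% and 3.74%). The summed intensity of the list was 2984 and 2755 at E13 and 4862 and 5763 at E14.

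The Sertoli genes next to Amh and Mia did not pass, though their arrays did not overlap. Aard read 289.7 and 226.2 at E13 and 745.3 and 1008.1 at E14 (log2 1.70, adjusted p = 0.0547 by limma). Aldh1a1, an enzyme that makes retinoic acid, read 89.5 and 77.3 against 319.9 and 455.7 (4.01-fold on this scale, adjusted p = 0.0701 by limma). Tsx, an X-linked gene known from the testis, read 76.1 and 42.0 against 195.6 and 360.6 (log2 1.95, adjusted p = 0.0861 by limma). Tesc, a calcium-binding protein of the early testis, read 9.0 and 9.4 against 57.4 and 45.0 (log2 1.41, adjusted p = 0.0843 by limma). All of these were higher in both E14 arrays, and the size exceeded 2-fold in each.

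Cst8, of the cystatin family of protease inhibitors, read 61.4 and 71.0 against 135.0 and 234.5 (log2 1.24). Vnn1, a pantetheinase, read 49.5 and 36.1 against 71.2 and 104.0 (log2 0.81). Hsd17b3, the enzyme of the last step to testosterone, read 49.6 and 22.7 against 54.8 and 87.9 (log2 0.77). These last differences were smaller and none passed. With chip period as a block, 5 members of the list passed, namely Amh, Aard, Aldh1a1, Tsx and Cst8. In that fit 2 members were lower at an unadjusted p under 0.05 (limma). Of all 15866 probe sets 1453 had such a p there, in either direction.

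Other Sertoli genes had smaller rises or were lower at E14. The inhibin subunit genes Inha, at 148.8 and 114.7 against 150.1 and 157.1, and Inhbb, at 174.0 and 103.5 against 227.3 and 171.3, had differences of 0.21 and 0.50 and did not pass. Fgf9, a growth factor needed for testis formation, read 70.1 and 59.7 against 74.3 and 85.9 (log2 0.25). At the lower end were Hsd17b1 (log2 -0.42), Serpine2 (log2 -0.40) and Nedd9 (log2 -0.38), none of which passed.

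**Figure D3:**
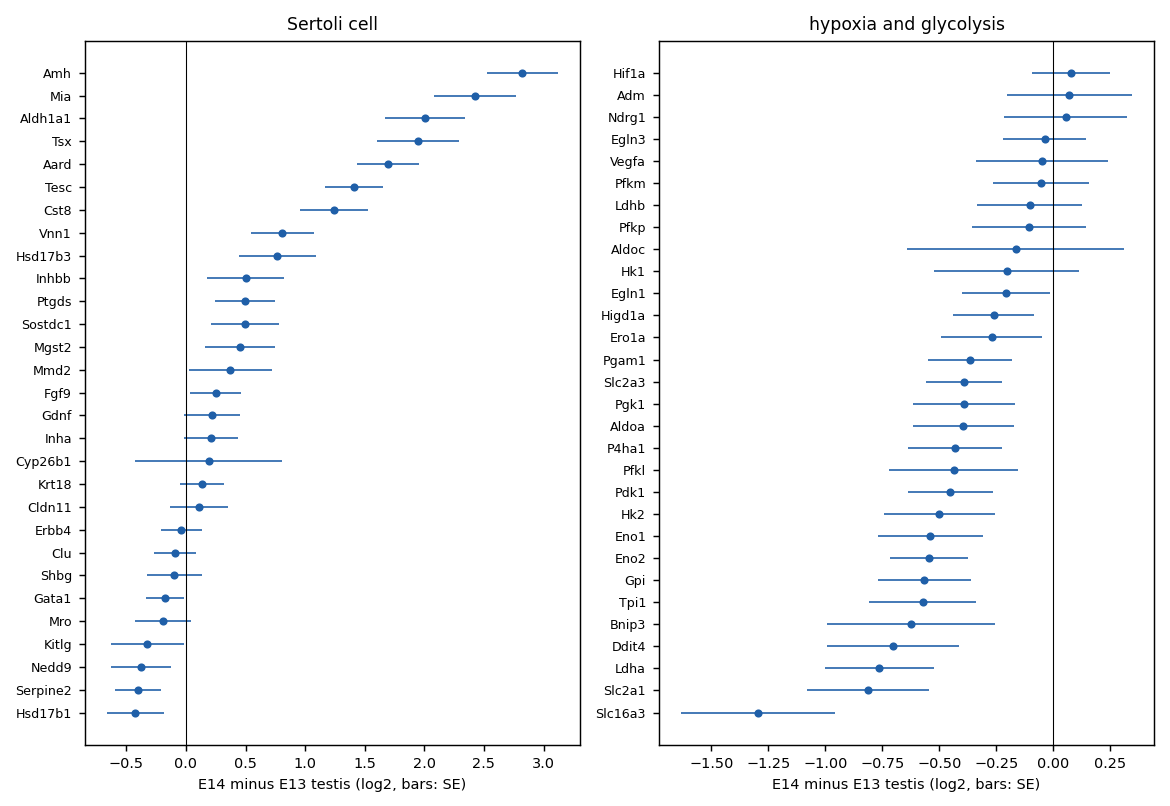
Log2 difference of E14 minus E13 testis for the 29 measured genes of the Sertoli cell list and the 30 of the hypoxia and glycolysis list, with bars for the standard error of the fit. In the first list 7 genes lie above 1, up to Amh at 2.82, and in the second 27 of 30 lie below 0, down to Slc16a3 at -1.29.

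Among 19 measured genes of sex determination and the early gonad, Sry alone passed, and the median difference was -0.03. At an unadjusted p under 0.05 there were 5 lower and 1 higher (over all genes 3.74% and 3.30%). Nr0b1, an orphan nuclear receptor dose-sensitive in sex reversal, read 167.6 and 181.6 at E13 and 110.1 and 79.6 at E14 (log2 -0.79, adjusted p = 0.500 by limma). Gadd45g, a gene that mouse gonads need for timely Sry expression, read 113.1 and 58.5 against 39.1 and 26.5 (log2 -1.02). Gata6 read 183.0 and 146.2 against 91.7 and 113.0 (log2 -0.61), with a difference of -0.03 in another probe set. None of these genes passed, and the readings given for each did not overlap.

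Of 17 genes of the pre-granulosa and ovary list, 0 passed (limma), and 2 were lower and 0 higher at an unadjusted p under 0.05 (over all genes 3.74% and 3.30%). The median was -0.19 in testis, and 0.33 over the same day in the ovary. Amhr2, the receptor of Amh, read 437.0 and 477.0 at E13 and 346.2 and 253.1 at E14 in testis (log2 -0.60), and 592.1 and 562.6 against 1071.5 and 856.2 in ovary. The testis step minus the ovary step was -1.31 (unadjusted p = 0.00047 by limma, not passed after adjustment). Lgr5, a receptor of the Wnt pathway, read 51.5 and 55.9 against 36.1 and 12.2 in testis (log2 -0.86). Fst, the activin-binding follistatin, overlapped, at 53.0 and 40.8 against 120.2 and 39.5, its highest reading being in the array with the Xist reading of 269.2. Wnt4 overlapped as well.

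Genes of steroid-producing cells had no shared direction between E13 and E14. Of 21 measured genes of steroidogenesis and the fetal Leydig cell, 0 passed (limma). At an unadjusted p under 0.05, 2 were higher and 1 lower (over all genes 3.30% and 3.74%). The fitted difference was above 0 for 10 (47.4% of all genes) and below 0 for 11, with a median of -0.00. Cyp11a1, which starts steroid synthesis from cholesterol, read 39.5 and 41.1 at E13 and 45.0 and 39.8 at E14. Cyp17a1, the enzyme that leads to androgens, read 15.5 and 2.3 against 4.3 and 3.9. Insl3, a Leydig cell hormone, read 37.8 and 18.1 against 39.7 and 13.2, and the cholesterol carrier Star read 45.0 and 30.3 against 28.1 and 19.5. Only Star had arrays that did not overlap among these, and it was lower at E14. Over the whole list 4 were higher and 5 lower without overlap, the latter against 20.2% of all genes. In either direction 35.6% of all probe sets did not overlap. The 2 higher at an unadjusted p under 0.05 were Vcam1 and Scarb1. Vcam1 read 37.1 and 19.8 against 56.0 and 55.9 (log2 0.72). Scarb1 read 12.9 and 22.4 against 41.3 and 40.1 (log2 0.77), while its other probe set overlapped with a difference of -0.39. Hsd3b1 read 36.1 and 33.0 against 19.2 and 95.6, so 1 of the E14 arrays was above both E13 arrays and the other below. Copies of the Hsd3b family can share probes.

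The next step, from E14 to E16, had 19 probe sets that passed (0.12%), all higher at E16. It shares the E14 arrays with the first step, so a high E14 reading enters the steps with opposite signs. Between the steps 3 probe sets passed (0.0189%), all with a larger rise in the second. Cyp11a1 had a difference of 0.05 in the first step and 3.81 in the second, reaching 615.1 and 1051.3 at E16 (second minus first 3.76, adjusted p = 0.00702 by limma). Cyp17a1 had -0.26 and then 6.48 (second minus first 6.74, adjusted p = 0.0319 by limma). Cpa1, a carboxypeptidase known from the pancreas, read 90.3 and 56.6 at E13, 40.2 and 21.7 at E14 and 1532.2 and 3181.8 at E16 (second minus first 6.53, adjusted p = 0.00702 by limma). The 3 calls were lost without E13 testis replicate 1 or 2 or E14 testis replicate 1, while leaving out E14 testis replicate 2 gave 1 call and leaving out E16 testis replicate 1 gave 5.

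The genes of the first step took several courses afterwards, none of which passed in the second step. Amh read 1092.8 and 813.6 at E16 (E16 minus E14 0.63) and Enpep 156.3 and 158.0 (0.91). Mia read 248.1 and 180.9, below both E14 arrays (-0.63), and Angel2 48.8 and 47.9 (-0.46). Ctsk (-0.16) and Mthfd2 (-0.04) stayed near their E14 readings. In E13 testis cultured for 3 days, Amh read 738.5 and 737.1, Ctsk 76.3 and 79.5, and Sry 13.4 and 20.2, each on the E14 or E16 side of fresh E13 testis.

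The E13 to E14 step was also set against the same step in the ovary, which shares no array with it. In the ovary 0 of 15866 probe sets passed (limma, 679 at an unadjusted p under 0.05, 4.28%). For the testis step minus the ovary step 0 passed as well (limma, 620 at an unadjusted p under 0.05, 3.91%), so no change is shown to be particular to the testis after adjustment. Without E13 testis replicate 2, 1 probe set passed. The smallest adjusted p was 0.0928. It was shared by Amh, with 2.82 in testis against -0.33 in ovary, and Angel2, with 1.90 against -0.23. All 11 probe sets of the testis step had an unadjusted p under 0.05 for this difference, and they had been chosen on 1 side of it.

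In direction, 9 of the 11 had the same sign in the ovary, as did 711 of the 1141 with an unadjusted p under 0.05 (62.3%) and 54.9% of all probe sets. The steps correlated at r = 0.192 across the 15866 probe sets, which are not independent replicates. The E14 replicate 2 arrays of both sexes lay in the same inferred chip batch. Tmem150c differed alike in both sexes, by -1.42 in testis and -1.28 in ovary, and so did Igfbp7, a binding protein of the insulin-like growth factor family, by 1.35 and 1.30; neither passed. Mgp, a matrix protein that binds calcium, differed by 1.35 in testis and 2.39 in ovary.

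**Figure D4:**
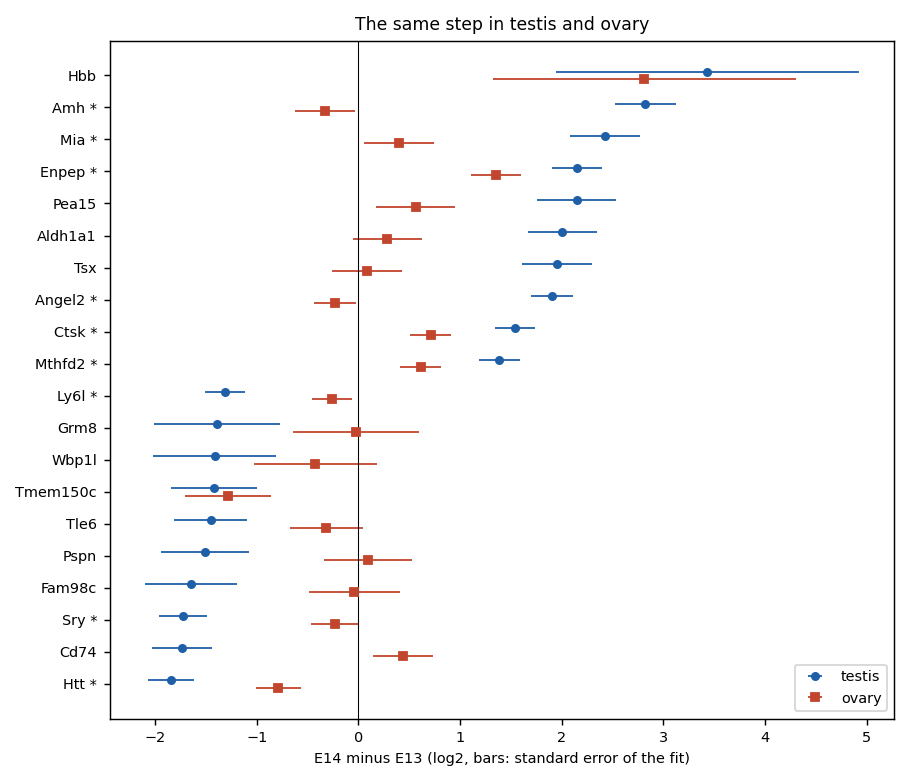
Log2 difference of E14 minus E13 in testis (circles) and ovary (squares) for 10 named rises and 10 named falls of the testis step. Bars are the standard error of the fit, and a star marks genes that passed in testis. Those that passed were taken first. Each direction was filled to 10 with the largest others at an unadjusted p under 0.05 (limma) without overlap of arrays. Amh and Angel2 lie on opposite sides of 0 in the sexes, while Hbb lies at 3.43 in testis and 2.81 in ovary with wide bars.

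The largest difference of any named gene was that of Hbb, a beta globin, which read 51.3 and 115.4 at E13 and 837.4 and 1190.7 at E14 (log2 3.43, SE 1.49, adjusted p = 0.671 by limma). It did not pass, and its spread was wide, with 2023.5 and 341.3 in the E14 ovary arrays. Of 19 red blood cell genes, 0 passed and 13 were above 0, against 47.4% of all genes. The median was 0.35, or 0.07 in the replicate 2 arrays. The summed intensity of this list was 10701 and 15177 at E13 and 16148 and 19260 at E14. Globin copies can share probes.

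Other large differences that did not pass complete the named rises and falls. Pea15, a phosphoprotein of cell survival, read 5.5 and 4.2 against 80.3 and 72.6 (log2 2.15, adjusted p = 0.0936 by limma), but its brighter probe set had a difference of 0.32. Cd74, the invariant chain of antigen presentation, read 96.8 and 119.1 against 38.4 and 9.2 (log2 -1.74, adjusted p = 0.0731 by limma), and the ovary went the other way (0.43). Fam98c (log2 -1.65), Pspn, a neurotrophic ligand (log2 -1.51), Tle6, of a family of transcription co-repressors (log2 -1.45), Tmem150c, a dimmer probe set of Wbp1l (log2 -1.42) and the brightest of Grm8, a glutamate receptor (log2 -1.39), followed among the lower ones. The brighter Wbp1l probe set overlapped between the ages, at 149.0 and 107.8 against 113.8 and 98.8 (log2 -0.23), and the 2 dimmer ones of Grm8 differed by -0.40 and -0.28. Cd74 and Pspn passed with chip period as a block.

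Genes of glycolysis and the response to low oxygen had mostly lower readings at E14, without any single gene passing. Of 30 measured, 27 had a fitted difference below 0, against 52.6% of all genes, and the median was -0.39. At an unadjusted p under 0.05, 10 were lower and 0 higher, against 3.74% and 3.30% of all genes. The arrays of 19 did not overlap and were lower at E14, which held for 20.2% of all genes.

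Slc16a3, which exports lactate, read 176.7 and 192.6 at E13 and 81.4 and 52.6 at E14 (log2 -1.29, adjusted p = 0.320 by limma). Ldha, the lactate dehydrogenase subunit, read 2167.0 and 2766.4 against 1326.7 and 1553.9 (log2 -0.76). The glucose transporter Slc2a1 read 285.3 and 228.4 against 152.6 and 125.5 (log2 -0.81). Both E14 arrays were below both E13 arrays in each of these. The enolase genes Eno1, at 2963.1 and 3676.2 against 2141.4 and 2392.2, and Eno2, at 57.7 and 52.5 against 36.8 and 28.9, differed by -0.54 and -0.55. Hif1a, the factor that responds to low oxygen, overlapped (log2 0.08), as did its target Vegfa (log2 -0.05), both by their brightest probe sets. The median of the list was -0.46 in the replicate 2 arrays and -0.43 with chip period as a block. In the ovary it was -0.20 over the same day.

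Cytosolic ribosomal protein genes had 35 of 40 above 0 with a median of 0.12, but 16 of 40 and a median of -0.04 after quantile normalization, so no direction holds for them. Of 39 cell cycle genes 0 passed, 25 were above 0 (47.4% of all genes) and the median was 0.14. With chip period as a block 20 were above 0 and the median was 0.02. In the replicate 2 arrays 28 were higher, with a median of 0.14. Of 50 genes of the respiratory chain 0 passed and the median was 0.01.

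Among 54 genes of the extracellular matrix and basement membrane, 0 passed and the median was 0.08. Postn, a matrix protein of loose tissue, read 537.5 and 558.5 at E13 and 299.1 and 193.3 at E14 (log2 -1.13, adjusted p = 0.198 by limma), against 584.0 and 655.8 and then 824.6 and 858.3 in the ovary. Mgp read 20.6 and 6.3 against 47.4 and 67.9, and the proteoglycans Dcn, at 58.1 and 94.5 against 174.1 and 176.5 (log2 1.08), and Bgn, at 261.2 and 257.5 against 411.2 and 404.4 (log2 0.62), were higher in both E14 arrays. Mgp was the only member that passed with chip period as a block.

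Of 23 smooth muscle and peritubular cell genes 0 passed and 18 were above 0, against 47.4% of all genes. The median was 0.19, against -0.18 in the ovary. Without overlap of arrays 8 were higher and 3 lower, the latter against 20.2% of all genes. Of all probe sets 35.6% did not overlap, in either direction. Pln, which regulates the calcium pump of muscle, read 37.5 and 50.8 at E13 and 76.6 and 90.2 at E14 (log2 0.73, adjusted p = 0.320 by limma). Acta2, the smooth muscle actin, read 214.5 and 191.1 against 211.4 and 287.4 and overlapped. Tagln, the lowest member of the list, read 49.6 and 47.8 against 26.6 and 20.9 without overlap (log2 -0.71, not passed).

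Signalling ligands gave few differences near the threshold. Ntf3, neurotrophin 3, read 26.6 and 17.9 at E13 and 59.6 and 59.5 at E14 (log2 0.99, SE 0.184, adjusted p = 0.104 by limma), while the other members of the neurotrophin list had differences between -0.41 and 0.51. Igf1 read 112.2 and 92.7 against 148.4 and 274.2 (log2 0.89) and Igfbp2 842.2 and 1194.3 against 765.5 and 464.7 (log2 -0.73). Gdf10, a ligand of the TGF-beta family, read 6.5 and 6.1 against 24.3 and 35.6 (log2 1.03), and Bmp4 139.9 and 133.1 against 81.1 and 80.0 (log2 -0.66). Pdgfa and Jag1 overlapped between the ages. None of these genes passed.

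Germ cell genes were measured thinly, with 11 of 40 listed. None passed, and the median was 0.21, against 0.42 over the same day in the ovary. The fitted difference was above 0 for 8 (47.4% of all genes) and below 0 for 3. Ifitm3, an interferon-induced membrane protein present on early germ cells, read 306.9 and 272.5 at E13 and 480.8 and 707.3 at E14 (log2 0.97), and passed with chip period as a block. Cxcr4, of the same list, was lower, at 142.2 and 140.4 against 115.2 and 122.0 (log2 -0.23). Its dimmer probe sets differed by -0.41 and -0.56. All 5 measured meiosis genes were above 0 (47.4% of all genes), with a median of 0.24. In the ovary the median of these genes was larger, at 0.61. Stag3, a cohesin subunit of meiosis, read 10.6 and 27.4 against 74.0 and 64.5 (log2 1.32, adjusted p = 0.138 by limma), and Sycp3, of the chromosome axis, read 17.8 and 35.9 against 41.0 and 60.6 (log2 0.66).

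**Figure D5:**
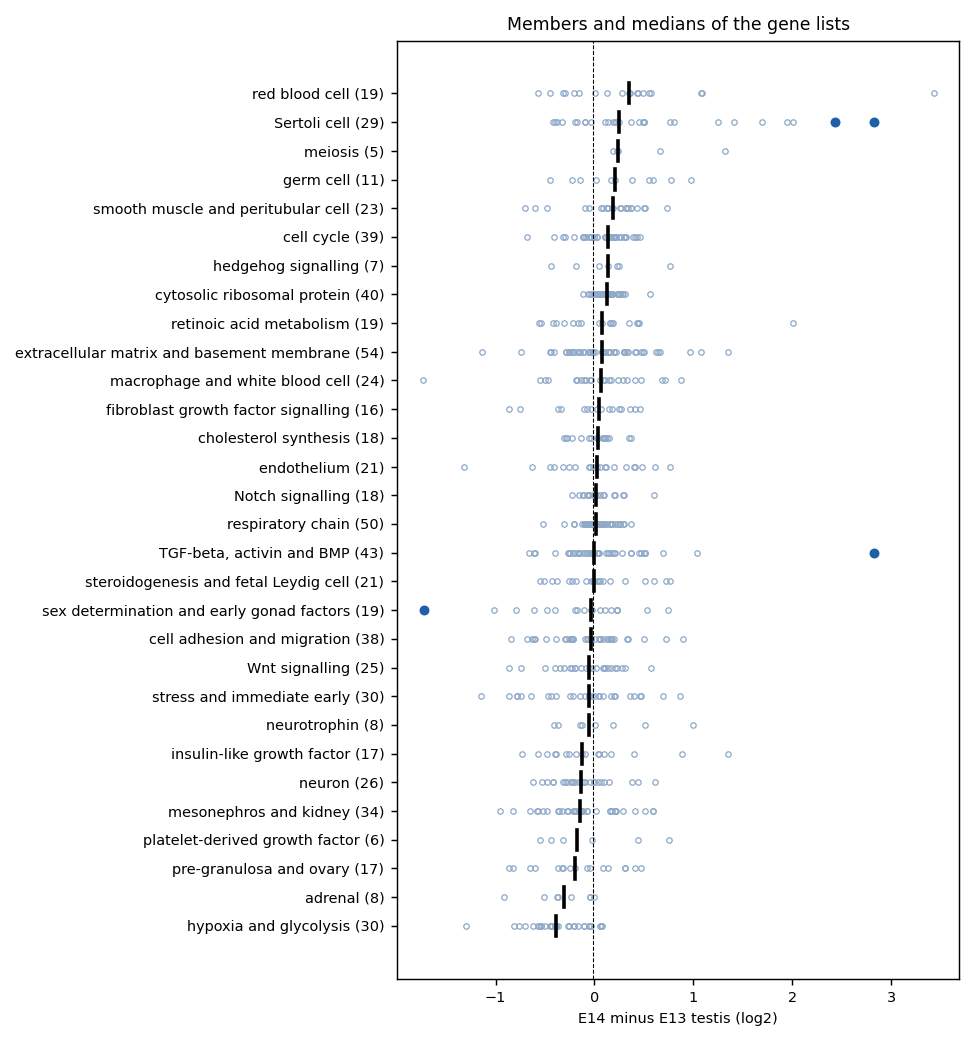
Log2 differences of E14 minus E13 testis for the measured genes (open points) of the 30 gene lists with at least 5 measured members, with the number measured in brackets, filled points for the members that passed and a black bar at the median. The dashed line is the median of all 10411 genes (-0.0159), and the hypoxia and glycolysis list (-0.39) has the lowest median.

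Markers of tissues that can be carried along with the gonad were counted for the whole lists, and their part in the results above was not tested. Of 34 mesonephros and kidney genes 0 passed and 22 were below 0, against 52.6% of all genes. In the replicate 2 arrays 19 of the 34 were lower. The summed intensity was 1877 and 1631 at E13 and 1762 and 1320 at E14. At an unadjusted p under 0.05 (limma), 2 were higher and 3 lower (over all genes 3.30% and 3.74%). Lhx1, a kidney and duct factor, read 76.9 and 37.5 against 27.3 and 14.4 (log2 -0.96), and Fabp1 15.7 and 15.4 against 1.3 and 2.3 (log2 -0.83). In the other direction, Slc12a1 read 4.0 and 3.9 against 15.9 and 12.2 (log2 0.59), and Spp1 23.1 and 47.3 against 63.9 and 54.0 (log2 0.59). All 8 adrenal genes had a fitted difference below 0 with a median of -0.30, and 4 of 8 were lower in the replicate 2 arrays. Of 26 neuron genes 0 passed and 19 were below 0, with sums of 1520 and 1480 against 1476 and 1192. In the replicate 2 arrays 22 of the 26 were lower, with a median of -0.32. With chip period as a block 21 were below 0. The sums of the 24 macrophage and white blood cell genes were 1239 and 1240 against 1252 and 1136, and those of the 21 endothelial genes 2061 and 1887 against 1949 and 1839. Actin signal at the 3′ end over that at the 5′ end, a ratio that increases as RNA degrades, was 1.47 and 1.94 at E13 and 1.83 and 1.60 at E14, overlapping between the ages.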

How the data were processed

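RNA of 7 groups of 2 pools of rat gonads was hybridised to single-channel Affymetrix arrays, 1 pool per array. The deposited values were linear intensities, 1 per probe set and array. Per the labels' protocols, RNA was extracted with Trizol and labelled with biotin by standard Affymetrix procedures. The software that made the summary is not given in the sources used here. After trimming 2% at each end, the mean was 125 in all arrays, so they had been scaled. The number of arrays limits the precision.

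The array holds 15923 probe sets, and the 57 that are Affymetrix controls were not tested. The platform annotation gave 12783 probe sets 1 symbol, 312 several and 2771 none, and a RefSeq table of GRCr8 held 12748 of the gene identifiers and changed 0 symbols. Values were analysed as log2(intensity + 16), which understates changes of dim probe sets. The 7 groups of all 14 arrays were fitted together (limma 3.58.1, R 4.3.3, functions lmFit and eBayes, 7 residual and 4.16 prior degrees of freedom), after a test on simulated data. P-values were adjusted by Benjamini-Hochberg over 15866 probe sets with a threshold of 0.05. They measure the spread between the arrays of a group. In every group but E13 ovary these arrays differed in inferred chip period as well as in pool, so the spread between pools is not measured alone.

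Genes named were the 10 largest rises and 10 largest falls that passed without overlap of arrays, filled where fewer passed with the largest differences at an unadjusted p under 0.05 without overlap. Added were list members that passed, up to 3 members per list and direction by smallest p, 24 check genes (of which Dazl is not analysed here), and up to 5 genes passing each difference between steps. Genes outside this rule given with values (Tesc, Cst8, Vnn1, Hsd17b3, Gata6, Slc2a1, Eno1 and Vegfa) were chosen after their values were seen. Tagln was given later as the lowest member of its list. A gene stands for its brightest probe set unless another is named. The comparison and gene lists were chosen with earlier results of these data known, so a pattern already seen in them is no independent support. Alternatives were other offsets, quantile normalization, a filter on dim probe sets, blocks for chip period, chip batch and replicate number, array weights, fewer groups, and leaving out arrays. Of these, the gene lists under quantile normalization and without the arrays of discordant Xist were added after seeing the data.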

Additional observations from a re-analysis of the deposited data

Results flagged for a closer look

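Between the first testis step (E13 to E14) and the second (E14 to E16), 3 genes differed by a test of the difference itself (limma, adjusted over all probe sets). The second minus the first step was 3.76 on the log2 scale for Cyp11a1, 6.53 for Cpa1 and 6.74 for Cyp17a1. All rose in both of 2 E16 arrays over both E14 arrays. The steps share the E14 arrays.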

How the results depend on the processing

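The 11 calls of E14 minus E13 testis became 7 with an offset of 1, 36 with chip period as a block, 20 with chip batch as random block, 5 with only the 8 testis arrays, 0 with only the 4 fresh arrays (limma, 1050 at an unadjusted p under 0.05) and 0 without the 4 arrays of discordant Xist (E13, E14 and cultured testis replicate 1 and E16 ovary replicate 2; limma, 1076 at an unadjusted p under 0.05). That last fit assumes that lone arrays vary like the other groups. Leaving out 1 array gave 0 to 12, with 5 without E13 ovary replicate 1 or 2. With the replicate block 18 passed, among them all 11; the replicate numbers were not taken as pairing the samples (correlation of their deviations 0.120, from 1 pair of groups), and the block gave 0 calls for testis minus ovary step and 4 for second minus first step. Testis step minus ovary step went from 0 to 2 with an offset of 1, 2 without dim probe sets and 3 with the random block for chip batch, and leaving out 1 array gave 0 to 1. Second minus first testis step went from 3 to 0 with an offset of 1, 5 with an offset of 64, 5 with quantile normalization, 7 without dim probe sets, 9 with the random block for chip batch and 0 without the 4 arrays, and leaving out 1 array gave 0 to 5. The causes were not tested. Leaving out arrays in 10 fits cost Amh and Angel2 their calls in 3, Enpep, Htt and the unnamed lower probe set in 4, Ctsk, Mia and Sry in 6, Mthfd2 and the unnamed higher probe set in 8 and Ly6l in 10.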
